A study of Arabidopsis thaliana with 24 samples.

Results

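The CC-type glutaredoxin genes described here are 10 loci of Arabidopsis thaliana, each read by the feature whose 1 gene in the platform annotation is that locus. All 10 loci had such a feature, 10 of the 28583 features on the array and of the 16746 that carry exactly 1 gene. They are AT4G15660, AT4G15670, AT4G15680, AT4G15690 and AT4G15700 on chromosome 4, AT5G18600 on chromosome 5, AT3G21460 and AT3G62950 on chromosome 3, AT2G47880 on chromosome 2 and AT1G03020 on chromosome 1. The 5 loci on chromosome 4 lie side by side, with 0 other genes of the RefSeq gene table between the first and the last. All belong to the CC-type family. The rule that picks their features uses no measured value, but the loci themselves were chosen with earlier results of these data known. Other loci of the family are described only as a comparison.

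Total RNA came from roots and rosettes of plants grown in hydroponic culture in short days (8 h light, 16 h dark). In each organ the 4 groups were rpt2-3a without enough sulfur, Col-0 without enough sulfur, rpt2-3a at normal supply and Col-0 at normal supply. Every plant had 5 weeks on complete medium, and the deficient groups then spent 5 days on medium deficient in sulfur. The name rpt2-3a refers to RPT2, one of the ATPases at the base of the proteasome's regulatory particle, and Col-0 is the reference accession. Each group had 3 arrays, called biological replicates in the series' design text, which gives 8 groups and 24 arrays. Values are read as log2 expression values, so a difference of 1 is taken as a doubling, and levels are not compared between features.

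Glutaredoxins are small oxidoreductases that use glutathione, a thiol made from sulfur assimilates, to reduce or modify cysteines of other proteins. The CC-type, also called ROXY proteins, occurs in land plants, has adjacent cysteines in its active site and works largely in the nucleus and cytosol through binding to TGA transcription factors. Many members end in a short motif that recruits the TOPLESS corepressors. The tandem genes on chromosome 4 are known as targets of nitrate and cytokinin and as restraints on primary root growth. AT2G47880 encodes CEPD2, a polypeptide that moves from leaf phloem to roots as a signal of nitrogen demand.

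The labelled organs matched their markers. The leaf markers RCA, ATPC1, PSAE-1 and LHCB4.1 had means from 2.26 to 4.96 over the 12 root arrays and from 8.51 to 11.34 over the 12 rosette arrays. EXPA7, the 1 root marker of 5 listed that had a named feature, averaged 7.66 in roots and 2.18 in rosettes. Array medians lay between 4.47 and 4.55 in roots and between 4.03 and 4.14 in rosettes, and arrays of a group correlated with r from 0.989 to 0.994. The RPT2 genes have no feature named in the annotation used here, so the mutation itself was not checked.

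The contrast between the organs was called for every member. All 10 features were lower in roots than in rosettes, in both genotypes and at both supplies, and in each gene the highest of 12 root arrays lay below the lowest of 12 rosette arrays. Among all features 19.9% and 19.8% were called lower in roots for deficient rpt2-3a and deficient Col-0, and 19.8% and 20.1% for rpt2-3a and Col-0 at normal supply. Single groups of 3 arrays without overlap, lower in roots, were found for all 10 members in each of the 4 comparisons. They were found for 22.4% and 20.8% of all features in deficient rpt2-3a and deficient Col-0, and for 20.7% and 21.3% in rpt2-3a and Col-0 at normal supply. The share of all features apart over 12 against 12 arrays, a stricter rule, is not given here. Because the loci were chosen with earlier results known, these shares serve as a description and not as a test of the family. Calls are at a Benjamini-Hochberg adjusted p under 0.05 in limma over all features, the threshold used throughout. The median root minus rosette difference of the 10 features was -2.09 in deficient rpt2-3a, -2.35 in deficient Col-0, -1.82 in rpt2-3a at normal supply and -2.28 in Col-0 at normal supply. The median over all features was 0.19, 0.22, 0.2 and 0.21 in the same 4 comparisons, slightly towards roots. In bulk tissue, fewer cells of a type and less RNA per cell cannot be told apart.

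AT5G18600 had the widest gap of the 10 between the organs. It ranged from 1.45 to 2.2 on root arrays, with a median of 1.82, and from 6.69 to 6.99 on rosette arrays, with a median of 6.88. The lowest rosette array stood 4.49 above the highest root array. The root minus rosette difference was -5.1 ± 0.13 SE in deficient rpt2-3a (34.2-fold, limma adjusted p = 8.9e-20) and -5.16 ± 0.13 in deficient Col-0 (35.7-fold, limma adjusted p = 7.8e-20). At normal supply it was -4.96 ± 0.13 in rpt2-3a (31.2-fold, limma adjusted p = 1.6e-19) and -4.99 ± 0.13 in Col-0 (31.8-fold, limma adjusted p = 1.3e-19). Within rosettes the same feature was nearly level, its 4 group means spanning 0.12.

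The 5 tandem genes of chromosome 4 were lower in roots as well. AT4G15700 ranged from 1.44 to 2.25 in roots (median 1.68) and from 4.51 to 5.91 in rosettes (median 5.06). Its root minus rosette difference was -4.18 ± 0.18 in deficient rpt2-3a, -3.38 ± 0.18 in deficient Col-0, -2.84 ± 0.18 in rpt2-3a at normal supply and -3.1 ± 0.18 in Col-0 at normal supply. The other 4 tandem genes showed the same separation of the organs. AT4G15670 lay between 2.01 and 2.68 in roots and between 4.45 and 5.63 in rosettes, and AT4G15690 between 1.36 and 1.82 in roots and between 3.69 and 4.84 in rosettes. AT4G15680 lay between 1.96 and 2.34 in roots and between 3.63 and 4.82 in rosettes. AT4G15660 lay between 1.87 and 2.6 in roots and between 3.73 and 4.58 in rosettes.

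The remaining 4 genes, on chromosomes 1, 2 and 3, kept the organs apart too. AT1G03020 ranged from 3.04 to 3.89 in roots (median 3.28) and from 4.45 to 5.52 in rosettes (median 4.9). AT3G21460 ranged from 1.95 to 2.71 in roots and from 3.36 to 4.2 in rosettes. Both kept a gap between the organs, of 0.56 for AT1G03020 and 0.65 for AT3G21460. AT2G47880, the CEPD2 gene, ranged from 1.6 to 2.05 in roots and from 3.16 to 3.98 in rosettes. AT3G62950 ranged from 1.48 to 1.99 in roots and from 2.47 to 3.27 in rosettes, with a gap of 0.48, and its difference was -0.95 ± 0.16 in deficient rpt2-3a (limma adjusted p = 1.2e-05) and -1.52 ± 0.16 in deficient Col-0 (limma adjusted p = 9.9e-09).

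**Figure D1:**
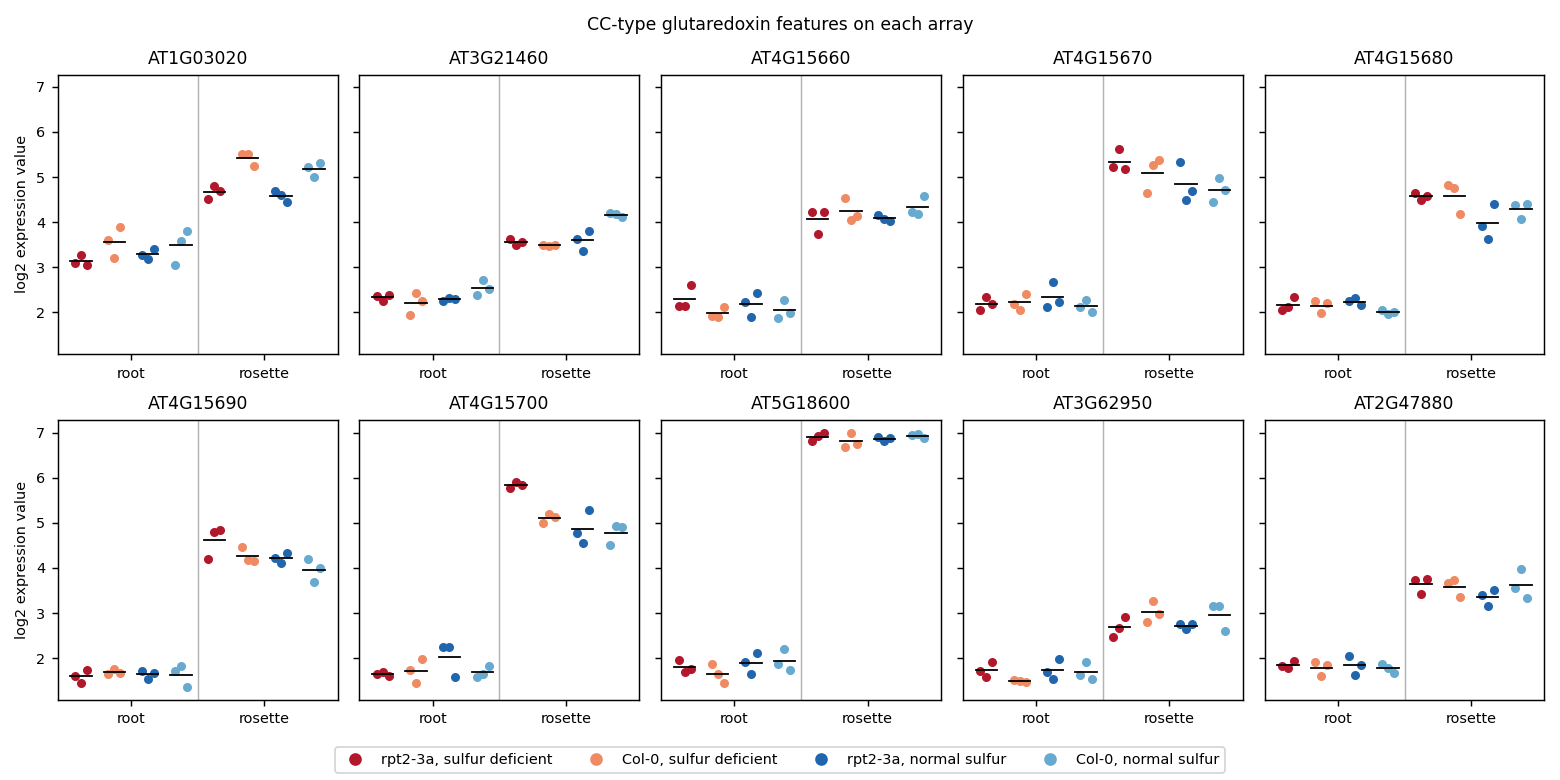
Log2 expression value of each of the 10 features on each of the 24 arrays, with root groups left of rosette groups; points are arrays and black bars are means of 3. Every root point lies below every rosette point of the same gene, and the panel of AT4G15700 shows deficient rpt2-3a rosettes between 5.77 and 5.91, above the other rosette arrays; heights are not comparable between genes.

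**Figure D2:**
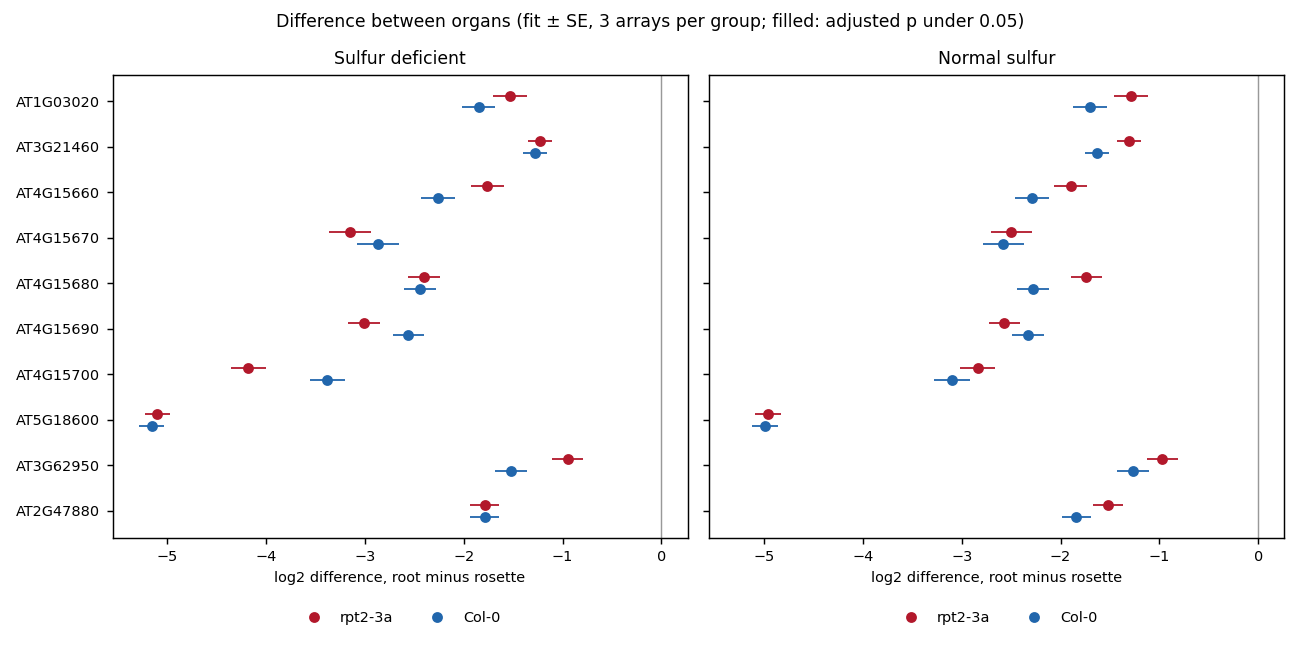
Root minus rosette log2 difference of each feature with its SE, under sulfur deficiency (left) and at normal supply (right), for rpt2-3a (red) and Col-0 (blue). All 40 points lie below zero, from -5.16 for AT5G18600 to -0.95 for AT3G62950, and all passed the test.

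No detection call comes with the values, and all 10 features were below the array median on each of the 12 root arrays. A low root value may therefore be a floor, and the fold differences between organs hold only for the deposited scale. AT3G62950 and AT2G47880 were below the array median on the rosette arrays too. AT3G21460 was above it on only 2 of the 12 rosette arrays.

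Under sulfur deficiency 1 of the 10 features was called in rpt2-3a rosettes, where 1.55% of all features were called and 0.868% were called higher. AT4G15700, of the nitrate- and cytokinin-responsive tandem, had 5.77, 5.91 and 5.83 in deficient rpt2-3a rosettes against 4.77, 4.56 and 5.28 at normal supply. Every deficient array was above every array at normal supply, which held for 2 of the 10 members and for 9.75% of all features. The feature rose by 0.97 ± 0.17 SE (1.95-fold, limma adjusted p = 0.011), with means of 5.84 ± 0.07 under deficiency and 4.87 ± 0.37 at normal supply (SD, n = 3 each). Without replicate 2 of deficient rpt2-3a the change was 0.93 with an adjusted p of 0.058, and in the other 11 fits without 1 rosette array it passed.

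The neighbours of AT4G15700 stood at positive values that did not pass. AT4G15680 had 4.64, 4.49 and 4.58 in deficient rpt2-3a rosettes against 3.92, 3.63 and 4.4 at normal supply, without overlap, and its change was 0.59 ± 0.19 (limma adjusted p = 0.19). With the highest of the values at normal supply, replicate 3, left out, its change was 0.8 with a limma adjusted p of 0.046. That was the 1 pass among 20 alternatives, in which the change ran from 0.41 to 0.8 with limma adjusted p up to 0.52. AT4G15670 had 5.23, 5.63 and 5.17 under deficiency against 5.33, 4.49 and 4.7 at normal supply, with a change of 0.5 ± 0.24 (limma adjusted p = 0.39). Its groups overlapped through replicate 1 at normal supply. AT4G15690 had 4.2, 4.8 and 4.84 under deficiency against 4.21, 4.1 and 4.33 at normal supply, with a change of 0.4 ± 0.18 (limma adjusted p = 0.35). AT4G15660, at the other end of the tandem from AT4G15700, stood at -0.02 ± 0.16.

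Outside the tandem no feature passed in rpt2-3a rosettes. AT2G47880 had 3.74, 3.43 and 3.75 under deficiency against 3.41, 3.16 and 3.51 at normal supply, overlapping, with a change of 0.28 ± 0.17 (limma adjusted p = 0.52). AT1G03020 (0.09), AT5G18600 (0.05), AT3G62950 (-0.03) and AT3G21460 (-0.04) were near zero on the log2 scale. Over the 10 features the median change was 0.19, with 7 values above zero and 3 below, against a median of 0 over all features.

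In Col-0 rosettes the 1 member that passed was AT3G21460, which fell, where 0.129% of all features were called and 0.0525% were called lower. It had 3.5, 3.48 and 3.49 in deficient Col-0 against 4.2, 4.17 and 4.12 at normal supply. The groups did not overlap, which in this direction held for 1 of the 10 members and 7.18% of all features. The change was -0.67 ± 0.11 (1.59-fold lower, limma adjusted p = 0.048). That call sits near the threshold: leaving out single rosette arrays ended it in 10 of 12 fits, with adjusted p between 0.066 and 0.19. It stood when replicate 2 or replicate 3 of normally supplied rpt2-3a was left out. The change itself stayed between -0.69 and -0.65 in those 12 fits.

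AT4G15700 in Col-0 rosettes had 5, 5.19 and 5.12 under deficiency against 4.51, 4.93 and 4.91 at normal supply. It was the 1 member whose deficient arrays all lay higher, as for 5.5% of all features, and its change of 0.32 ± 0.17 did not pass (limma adjusted p = 0.64). The tandem neighbours AT4G15670 (0.38), AT4G15680 (0.3) and AT4G15690 (0.3) had similar values with adjusted p from 0.7 to 0.74, and AT4G15660 stood at -0.09. In rosettes of both genotypes 4 of the 5 tandem genes had values above zero, but in Col-0 none of the 5 passed. These features were read on the same arrays and may share signal, so they are not separate observations. Over the 10 features the median change in Col-0 rosettes was 0.15, against -0.02 over all features.

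Roots gave no call among the 10 features. In rpt2-3a roots, where 0.143% of all features were called, the changes ran from -0.37 to 0.11 with a median of -0.05. There 0 members had an unadjusted p under 0.05 in limma, against 8.74% of all features. In Col-0 roots, where 0.875% of all features were called, the changes ran from -0.32 to 0.14 with a median of 0.02. There 1 member had an unadjusted p under 0.05 in limma, against 9.41% of all features. That member was AT3G21460, with 1.95, 2.44 and 2.25 in deficient Col-0 roots against 2.39, 2.71 and 2.51 at normal supply, overlapping (-0.32 ± 0.13, limma adjusted p = 0.42). AT4G15700 stood at -0.37 ± 0.17 in rpt2-3a roots (limma adjusted p = 0.57) and at 0.04 ± 0.17 in Col-0 roots. The 95% intervals of the 10 changes reached from -0.75 to 0.46 in rpt2-3a roots and from -0.62 to 0.5 in Col-0 roots.

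**Figure D3:**
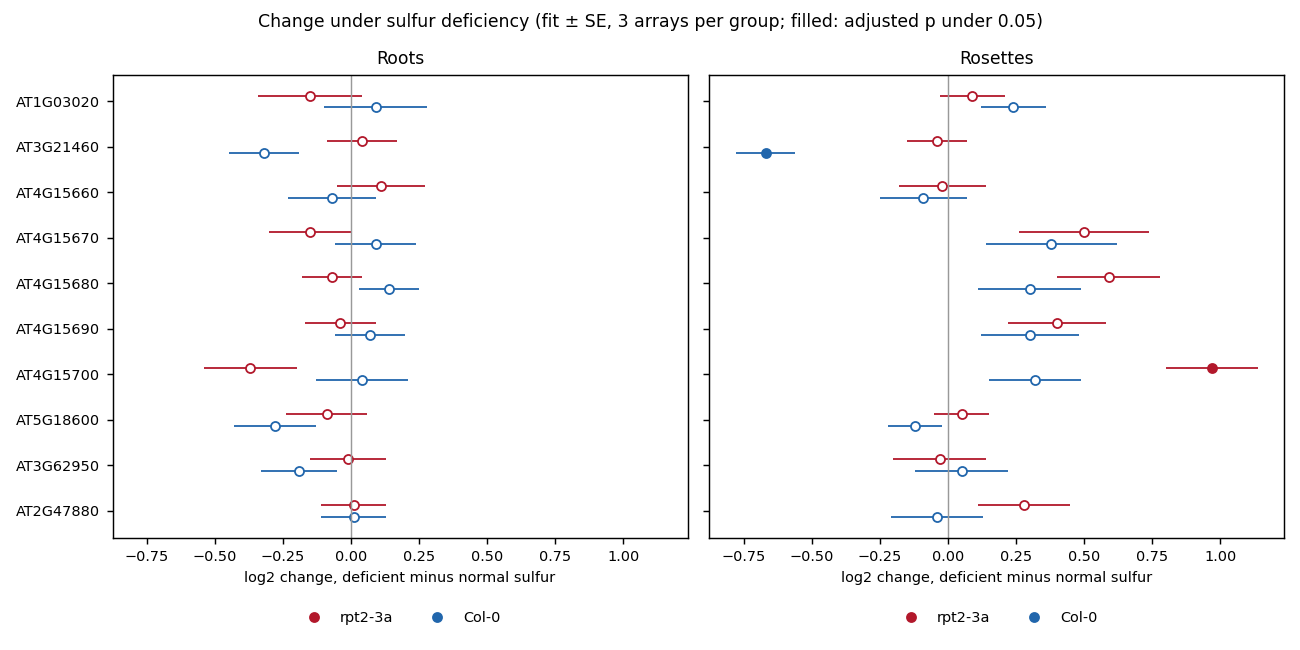
Log2 change under sulfur deficiency of each feature with its SE, in roots (left) and rosettes (right), for rpt2-3a (red) and Col-0 (blue); filled points passed at an adjusted p under 0.05. The 2 filled points are AT4G15700 in rpt2-3a rosettes (0.97) and AT3G21460 in Col-0 rosettes (-0.67), and the root points lie between -0.37 and 0.14.

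Whether these responses differed was tested directly. The sulfur response of AT4G15700 was lower in roots than in rosettes of rpt2-3a, by -1.34 ± 0.25 (limma adjusted p = 0.017), 1 of 10 members called, where 0.399% of all features were called and 0.185% were called lower. The response was -0.37 in roots and 0.97 in rosettes. In rpt2-3a roots 4 of 4 leaf markers stood lower under deficiency, with a median change of -0.39 and none called, against 0.04 in Col-0 roots. Their mean was 3.05, 3.3 and 3.43 on the deficient rpt2-3a root arrays against 3.36, 4.26 and 3.42 at normal supply, overlapping. Their part in the result was not tested. Among rosettes the call was lost when replicate 2 of deficient rpt2-3a (adjusted p = 0.054) or replicate 2 of normally supplied rpt2-3a (adjusted p = 0.061) was left out. Among roots it was lost when normally supplied rpt2-3a lacked replicate 1 (adjusted p = 0.068) or replicate 2 (adjusted p = 0.051), and over all such fits the value stayed between -1.56 and -1.19. In Col-0, where 0.469% of all features were called, the same contrast gave -0.28 ± 0.25 for AT4G15700 (limma adjusted p = 0.81) and no call among the 10.

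Between genotypes the rosette responses gave no call among the members, nor among all features (0%) in limma, where 2 members and 2650 features had an unadjusted p under 0.05. AT4G15700 had a difference of 0.65 ± 0.24, with a 95% interval from 0.14 to 1.15 (limma adjusted p = 0.41). AT3G21460 had a difference of 0.63 ± 0.16 (limma adjusted p = 0.23). A response that passed in one genotype is therefore not shown to differ from the other genotype. Root responses gave no call among the members either, with 0.0105% called over all features.

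AT1G03020 was lower in rosettes of rpt2-3a at both supplies. Under deficiency AT1G03020 had 4.52, 4.8 and 4.7 in rpt2-3a against 5.5, 5.52 and 5.25 in Col-0. At normal supply it had 4.68, 4.61 and 4.45 in rpt2-3a against 5.23, 5 and 5.32 in Col-0. No mutant array reached any Col-0 array at either supply, and the 6 mutant rosette arrays lay between 4.45 and 4.8.

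The difference of AT1G03020 was -0.75 ± 0.12 under deficiency (1.68-fold lower, limma adjusted p = 0.023), where 1 member was called and 0.322% of all features, 0.213% lower. It was -0.6 ± 0.12 at normal supply (1.52-fold lower, limma adjusted p = 0.026), where 2 members were called and 2.01% of all features, 1.08% lower. Groups without overlap, lower in rpt2-3a, were found for 1 member and 6.97% of all features under deficiency and for 3 members and 9.57% of all features at normal supply. Both comparisons contrast different arrays but take their spread from the same fit of 12 rosette arrays, so they are not independent tests. With only the groups compared, the call at normal supply was lost (limma adjusted p = 0.088) and that under deficiency passed. Under deficiency the call of AT1G03020 was lost without Col-0 replicate 1 (-0.71, adjusted p = 0.073) or 2 (-0.7, adjusted p = 0.099) and without rpt2-3a replicate 1 (-0.67, adjusted p = 0.14) or 3 (-0.76, adjusted p = 0.086). At normal supply it was lost without Col-0 replicate 1 (-0.58, adjusted p = 0.11) or 3 (-0.53, adjusted p = 0.09) and without rpt2-3a replicate 2 (-0.62, adjusted p = 0.075) or 3 (-0.54, adjusted p = 0.062). In roots AT1G03020 had 3.1, 3.28 and 3.04 in deficient rpt2-3a against 3.61, 3.21 and 3.89 in deficient Col-0, overlapping, with a difference of -0.43 ± 0.19 (limma adjusted p = 0.44). At normal supply the root difference was -0.19 ± 0.19.

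AT3G21460 was also lower in rpt2-3a rosettes at normal supply, with 3.62, 3.36 and 3.81 against 4.2, 4.17 and 4.12 in Col-0. The groups did not overlap, and the difference was -0.57 ± 0.11 (1.48-fold lower, limma adjusted p = 0.022). Under deficiency it had 3.63, 3.49 and 3.55 in rpt2-3a against 3.5, 3.48 and 3.49 in Col-0, a difference of 0.07 ± 0.11 (limma adjusted p = 0.91). Col-0 rosettes at normal supply thus held the 3 highest values of this feature, and the 9 other rosette arrays lay at 3.36 to 3.81. The genotype difference at normal supply and the Col-0 sulfur response use the same 3 arrays of Col-0 at normal supply. The genotype call was lost in 5 of 12 fits without 1 rosette array (adjusted p from 0.05 to 0.098), each lacking one of the 3 Col-0 arrays of that comparison or its rpt2-3a replicate 1 or 2.

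AT4G15700 stood higher in deficient rpt2-3a rosettes without passing. The values were 5.77, 5.91 and 5.83 in rpt2-3a against 5, 5.19 and 5.12 in Col-0, a difference of 0.73 ± 0.17 (limma adjusted p = 0.09). It was the 1 member with groups apart in this direction, as were 9.71% of all features. At normal supply the genotypes overlapped, with a difference of 0.09 ± 0.17. In the order of its rosette means, deficient rpt2-3a at 5.84 ± 0.07 came before deficient Col-0 at 5.1 ± 0.1, rpt2-3a at normal supply at 4.87 ± 0.37 and Col-0 at normal supply at 4.78 ± 0.24 (SD, n = 3 each). Both groups at normal supply overlapped, and the lower 3 groups gave no call among themselves in the comparisons made. The genotype difference under deficiency passed in 5 of 20 alternatives, 1 of them among the 12 fits without 1 rosette array. It passed with array weights (limma adjusted p = 0.044), with a trended and robust spread (0.038), with only the 2 groups (0.028) and with all 24 arrays (0.049). It also passed with replicate 3 of normally supplied rpt2-3a left out (0.029). In the other alternatives it did not pass, with limma adjusted p up to 0.27.

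The other members showed no genotype call. In rosettes AT3G62950 stood at -0.34 ± 0.17 under deficiency and -0.25 ± 0.17 at normal supply, AT4G15660 at -0.18 and -0.25, and AT2G47880 at 0.06 and -0.26. AT4G15690 stood at 0.35 and 0.25, AT4G15670 at 0.25 and 0.12, AT4G15680 at -0.02 and -0.3, and AT5G18600 at 0.1 and -0.06. These 7 features had adjusted p of at least 0.52 in either comparison. In roots no member was called, with differences from -0.43 to 0.32 under deficiency, where 0.77% of all features were called, and from -0.25 to 0.34 at normal supply, where 0.577% were called. Tests of whether the genotype difference itself differed between the organs gave no call among the members, with 0.465% of all features called under deficiency and 1.32% at normal supply. The value furthest from zero there was AT4G15700 under deficiency (-0.8 ± 0.25, limma adjusted p = 0.22).

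**Figure D4:**
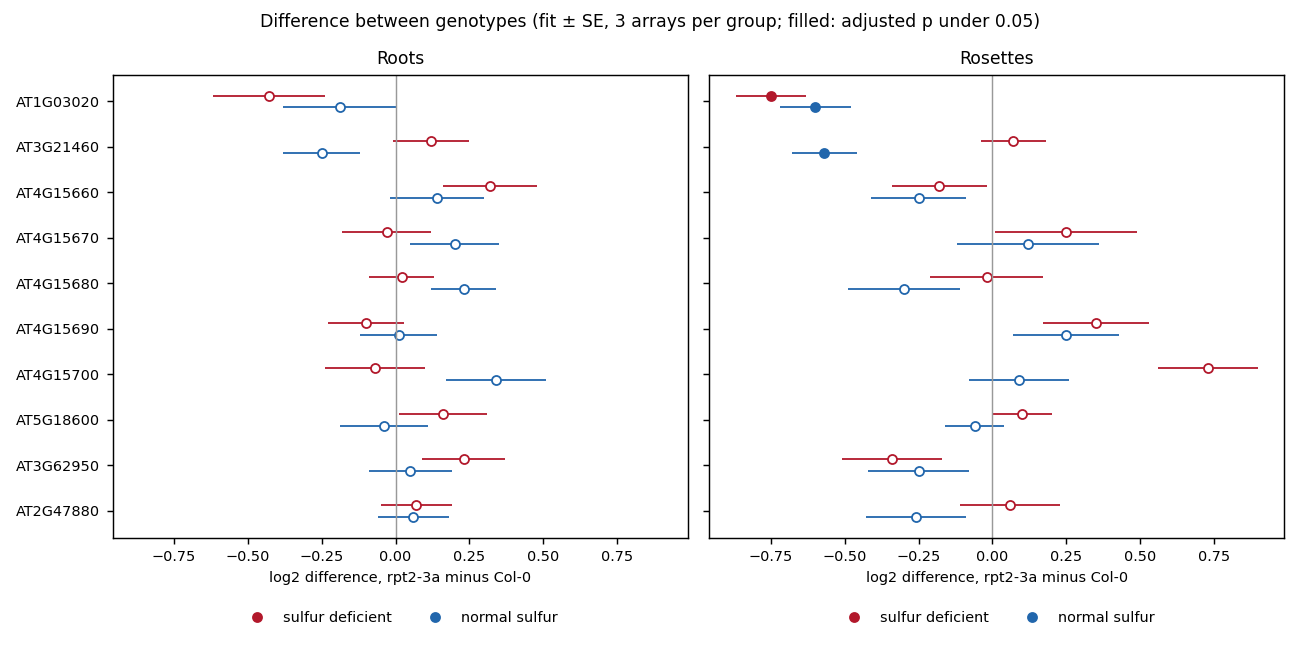
Log2 difference between rpt2-3a and Col-0 of each feature with its SE, in roots (left) and rosettes (right), under sulfur deficiency (red) and at normal supply (blue); filled points passed at an adjusted p under 0.05. The 3 filled points are AT1G03020 under deficiency (-0.75) and at normal supply (-0.6) and AT3G21460 at normal supply (-0.57), all in rosettes.

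Correlations among the members from array to array were mixed. Over the 12 rosette arrays the 10 pairs within the tandem had Pearson r from -0.51 to 0.67 with a median of 0.28, and the 10 pairs among the 5 other genes had r from -0.11 to 0.55 with a median of 0.31. The 25 pairs across these groups had r from -0.51 to 0.51 with a median of -0.02. Over the 12 root arrays the medians were 0.14, 0.13 and 0.02 for the same kinds of pair. The lowest r within the tandem in rosettes was that of AT4G15660 with AT4G15670 (-0.51). These values describe arrays that share groups and carry no test. The sources used here do not say whether probes of one tandem feature also match its neighbours' transcripts. Values of AT4G15660 to AT4G15700 may share signal.

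The genes most like the members' mean were named from their correlation with the mean of the 10 features, each centred on its own mean, over the 12 arrays of an organ. In rosettes they were AT1G75800 (r = 0.962), AT1G32700 (0.959), AT2G17350 (0.942), AT1G55000 (0.931) and AT2G39420 (0.929). That mean was lowest on replicate 2 of rpt2-3a at normal supply, at -0.35, and highest on replicate 3 of deficient rpt2-3a, at 0.17. In roots they were AT4G14165 (0.907), AT4G12617 (0.881), AT1G56400 (0.837), AT3G22870 (0.82) and AT5G52550 (0.813), with the mean between -0.14 and 0.13. They were picked from all features with exactly 1 gene, so high values are built in by the choice.

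Other CC-type loci served as a comparison: 10 of 11 listed loci had a named feature. None of the 10 was called under sulfur deficiency in either organ and genotype, with list medians of 0.03 and -0.05 in roots of rpt2-3a and Col-0 and of 0.09 and -0.04 in rosettes of rpt2-3a and Col-0. Between the organs 3 were lower and 2 higher in roots in deficient rpt2-3a, and 3 lower and 1 higher in deficient Col-0. At normal supply 4 were lower and 1 higher in rpt2-3a, and 3 lower and 1 higher in Col-0. Over all features 19.9%, 19.8%, 19.8% and 20.1% were called lower in these comparisons, in the same order. The share called higher is not given here. AT2G47870, AT1G06830 and AT2G30540 were lower in roots in all 4 comparisons, AT2G47870 by -2.49 ± 0.2 in deficient rpt2-3a and -2.4 ± 0.2 in deficient Col-0 (limma adjusted p = 1.1e-10 and 2.2e-10). AT1G06830 encodes CEPD1, the partner of CEPD2 as a signal of nitrogen demand, and stood at -1.3 ± 0.2 and -1.18 ± 0.2 (limma adjusted p = 5.9e-06 and 2.1e-05). ROXY2, a regulator of anther development, was higher in roots in all 4, by 0.46 ± 0.15 in deficient rpt2-3a and 0.35 ± 0.15 in deficient Col-0 (limma adjusted p = 0.0089 and 0.04). The median difference over all features was 0.19 and 0.22 in these 2 comparisons. ROXY2 means there were 2.28 and 2.24 in roots and 1.82 and 1.89 in rosettes. All lay below the array medians, where a low value may be a floor, so root expression of ROXY2 is not shown. ROXY1, which shapes petals, was called in none. The difference between both sets of loci was not tested.

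AT2G30540 was the 1 gene of that list called between genotypes, lower in rpt2-3a roots under deficiency with 1.65, 1.65 and 1.58 against 2.77, 2.14 and 2.21 in Col-0. The difference was -0.75 ± 0.15 (limma adjusted p = 0.033), where 0.77% of all features were called. Its root means were 1.63 in deficient rpt2-3a, 1.82 in rpt2-3a and 1.77 in Col-0 at normal supply, with deficient Col-0 apart at 2.37. All lay below the root array medians of 4.47 to 4.55, where a low value may be a floor.

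Partners and regulators of the family were thinly covered. None of 10 TGA factors and none of 5 TOPLESS corepressors had a feature with exactly 1 gene named as theirs, so these were not analysed here. Of 9 type-A response regulators, early targets of cytokinin, 2 were measured. ARR15 had 4.98, 4.89 and 5.04 in deficient rpt2-3a rosettes against 3.87, 3.51 and 4.27 at normal supply, without overlap, and rose by 1.09 ± 0.2 (limma adjusted p = 0.014). The other, RR16, had 4.72, 4.96 and 4.81 against 4.18, 4.34 and 5.02, overlapping, with a change of 0.32 (limma adjusted p = 0.57). In Col-0 rosettes ARR15 stood at -0.3 and RR16 at 0.19, and neither passed. ARR15 and AT4G15700 were thus both called higher in deficient rpt2-3a rosettes, which use the same 6 arrays, and a link between them was not tested. Of 13 nitrate response genes AT3G25790, a GARP-type regulator, was measured, and its sulfur changes lay at 0.29 in rpt2-3a roots, 0.25 in Col-0 roots, -0.11 in rpt2-3a rosettes and -0.23 in Col-0 rosettes, with adjusted p of at least 0.38 each.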

How the data were processed

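Labelled total RNA of 24 samples was hybridised to single-colour Affymetrix arrays. The deposited log2 values (28583 features, 0.93 to 12.77, 2 decimals) were made with Transcriptome Analysis Console, per the submitters' processing notes; its version is not given in the sources used here. The same holds for summarisation, normalization, genome build and log base. Scale and centring are therefore unknown, and folds assume base 2. Groups came from sample titles. Features were named through the platform annotation and, by gene identifier, the RefSeq table of TAIR10.1, used for names, chromosomes and gene order only.

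Without further normalization, all features were fitted by lmFit, contrasts.fit and eBayes of limma 3.58.1 under R 4.3.3: 1 fit per organ (12 arrays, 8 residual degrees of freedom) and 1 over all arrays (16) for contrasts between organs, 18 comparisons in all. Calls are two-sided at a Benjamini-Hochberg adjusted p under 0.05, and intervals are at 95%. The fit was also run on simulated rosette values, drawn independently for each feature, with planted shifts. That run held no root values and does not bear on the unknown normalization. Members and lists were chosen with earlier results of these data known. Every member was named, with the 5 features most alike in each organ (1 gene, highest Pearson r with the members' mean) and listed genes that were called or fixed as organ markers or pathway partners. Alternatives were centring, quantile normalization, a trended robust spread, only the groups compared, all arrays, array weights, brighter features, a replicate block and each array left out. Arrays give no count depth, so their number limits precision. No scan date was given, so batches could not be examined.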

Additional observations from a re-analysis of the deposited data

Results flagged for a closer look

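The sulfur response of AT4G15700 differed between the organs of rpt2-3a by the test of the difference, at -1.34 (root minus rosette, SE 0.25, limma adjusted p = 0.017). The response was -0.37 in roots and 0.97 in rosettes, where 3 of 3 deficient arrays lay above all 3 at normal supply. All 6 rpt2-3a root arrays were between 1.59 and 2.25, near the low end of the deposited scale. Replicates 1 and 2 of rpt2-3a roots at normal supply, at 2.25 and 2.24, were the highest of them, and the call was lost without either (adjusted p = 0.068 and 0.051). The median change of the 4 leaf markers under deficiency was -0.39 in rpt2-3a roots, with none called, and 0.04 in Col-0 roots. On replicate 2 of rpt2-3a roots at normal supply PSAE-1 had 4.74, against 2.46 and 2.66 on the other 2 arrays of the group, and RCA had 4.55, against 3.95 and 3.91. The mean of the 4 markers was 4.26 on that replicate, 3.36 on replicate 1 and 3.42 on replicate 3. AT4G15700 had 2.24, 2.25 and 1.59 on those arrays, in the same order. AT5G18600, the member with the widest gap between the organs, changed by -0.09 ± 0.15 under deficiency in rpt2-3a roots. The part of the leaf markers in the result was not tested.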

How the results depend on the processing

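All 40 differences between the organs kept their direction and passed in every alternative that could give them, with values from -5.59 to -0.84 and adjusted p up to 0.00026; over brighter features the count of members called was 1 in each of the 4 comparisons, since AT5G18600 was the only member kept, and in roots that filter kept 0 members and gave no value. No called value turned sign in any alternative. In the Col-0 rosette response the member count became 0 after quantile normalization (AT3G21460 at -0.64, adjusted p = 0.072), 0 with only the groups compared (adjusted p = 0.13) and 0 over brighter features, which drop AT3G21460. The genotype difference in rosettes at normal supply went to 0 members with only the groups compared (AT1G03020, adjusted p = 0.088, and AT3G21460, adjusted p = 0.12) and to 1 over brighter features. Under deficiency it became 2, through AT4G15700, with a trended robust spread, with only the groups compared, with all 24 arrays in 1 fit and with array weights. The organ contrast of the rpt2-3a response went to 0 with only the groups compared (AT4G15700, adjusted p = 0.057) and to 0 over brighter features. Without 1 array the counts ranged from 0 to 1 for the Col-0 rosette response and the organ contrast, and from 0 to 2 for the rpt2-3a rosette response and for both rosette genotype differences; the causes of these moves were not tested. Members outside these results were called in none of the alternatives. Replicate numbers were not shown to pair the arrays: same-numbered arrays of compared groups correlated in their deviations with r from -0.07 to 0.24, and 17 of 48 correlated best with their own number. With the replicate block every member call stood, with adjusted p of 0.045 for AT3G21460 and 0.011 for AT4G15700 in the sulfur responses, and the features called in the Col-0 rosette response numbered 70 in place of 37. The number of arrays, 3 a group, limits the precision, and in roots all members lay under the array median, with no detection call to tell signal from background.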

Other observations

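Of 10 listed glutaredoxin loci of the CPYC and CGFS classes 5 had a named feature, and their organ differences ran both ways. In roots 2 were higher and 1 lower in deficient rpt2-3a, and 2 higher and 2 lower in deficient Col-0. Over all features 19.9% and 19.8% were called lower there, and the share called higher is not given here. GrxC5, a plastid glutaredoxin, was lower in roots, by -1.74 ± 0.17 in deficient rpt2-3a and -1.95 ± 0.17 in deficient Col-0 (limma adjusted p = 3.1e-09 and 4.2e-10). AT1G77370 was higher in roots, by 1.04 ± 0.09 and 0.73 ± 0.09 (limma adjusted p = 5.1e-10 and 2e-07), and AT5G20500 was higher as well (0.47 and 0.63). None of the 5 was called under sulfur deficiency, and GrxC5 was lower in rpt2-3a than in Col-0 rosettes at normal supply, at 6.14 ± 0.14 and 6.63 ± 0.07 (SD, n = 3 each; -0.49 ± 0.11, limma adjusted p = 0.039).

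Of 4 listed genes of glutathione synthesis and reduction 2 were measured, both glutathione reductases. GR1, the cytosolic and peroxisomal form, averaged 6.42 ± 0.04 in deficient rpt2-3a rosettes and 6.87 ± 0.05 at normal supply (SD, n = 3 each) and fell, at -0.45 ± 0.1 (limma adjusted p = 0.038). GR, the plastid and mitochondrial form, stood at -0.05 there.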
